A study of Rattus norvegicus with 30 samples.

Results

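The lungs of 5 rats that had inhaled copper oxide nanoparticles at 13.2 mg/m3 were compared with those of 5 rats that had inhaled clean air, 1 day after the last exposure. These 10 arrays, 1 per rat, were taken by their titles (dose and time point) from the 30 of the study. All animals were adult male rats of the outbred Wistar Unilever stock (HsdCpb:WU), unmodified, 8 weeks old by the labels, and kept in nose-only tubes during exposure. Both groups were exposed on 5 consecutive days, the nanoparticle dose being given as the 6-hour equivalent concentration, and the lungs were taken on day 6 of the study. Rats exposed to 3.3 mg/m3 (low dose, day 6, 5 rats) and the high dose and air rats of day 28, which is 22 days after the last exposure (5 rats each), are used where a sentence names them. The labels give the nanoparticles as the treatment of the 0 mg/m3 rats too; these are treated here as the air controls. No transgene or induced disease is named, and the whole lung RNA of 1 rat is a mixture of all its cell types.

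Copper oxide is a sparingly soluble oxide, and particles that reach the alveoli are taken up by macrophages, in whose acidic lysosomes the metal can dissolve. Copper ions are bound by metallothioneins and handed to cuproenzymes by chaperones, and free copper can drive the formation of reactive oxygen species. Damaged or stimulated alveolar cells release cytokines and chemokines through NF-kB and interferon signalling, monocytes and neutrophils enter the air spaces, and the epithelium and endothelium then divide to restore the thin barrier of type I cells and capillaries.

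Each array reports, per probe, the brightness of the rat's own RNA (Cy5) over that of a reference RNA common to all arrays (Cy3). Values below are log2 of that ratio after background correction and normalization. They are listed for air rats 1 to 5 and then for high dose rats 75 to 79, in that order. A ratio compares rats for 1 gene, not 1 gene with another. Differences are high dose minus air with the standard error (SE) of the fit, n = 5 rats in each group, and the p-values are from limma, adjusted over all 18420 genes tested. A gene "rose" or "fell" where that adjusted p was below 0.05. Between 61.9% and 66.6% of the probes of the 10 arrays were well above background, no spot was saturated, and ratios of arrays of the same group correlated at 0.924 to 0.977 against 0.827 to 0.917 between the groups, over probes, which are not independent replicates.

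The tissue carried its defining markers. The surfactant gene Sftpc read 9.88, 9.43, 10.10, 10.39 and 9.80 in air rats and 10.36, 9.41, 10.13, 9.77 and 9.52 in high dose rats, and Ager, a receptor abundant on alveolar type I cells, 4.10, 3.93, 4.08, 4.15 and 4.07 against 4.17, 3.78, 3.90, 3.88 and 3.75. Neither gene passed the test (-0.08 ± 0.24, adjusted p = 0.823, and -0.17 ± 0.10, adjusted p = 0.196). With the Cy5 signal alone, without the reference channel, Ager fell by 0.70 (adjusted p = 0.0195). Air rat 4 stood apart from the other 9 animals. The mean log2 ratio of 13 heart muscle genes was 4.44 in that rat and between -0.64 and 0.36 in the other 9, and its means of lymphoid tissue genes (1.67 against 0.43 to 1.09) and airway genes (2.91 against 1.27 to 2.06) were also the highest. Values without this rat stand beside the results that it moved most. Its removal also took the median of iron and heme genes from 0.43 to 0.33, of lymphatic genes from -0.41 to -0.32, of adhesion molecules from 0.25 to 0.17 and of smooth muscle and pericyte genes from -0.14 to -0.08.

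Of the 18420 genes tested, 3883 rose (21.1%) and 2845 fell (15.4%), so 36.5% of all genes differed and the count in any group of genes has to be read against that. The groups did not overlap in 16.8% of the genes with the exposed rats higher and in 10.9% with them lower. The median difference over all genes was 0.01, and the changes were mostly modest: 1780 genes rose and 953 fell by at least 1.5-fold, 142 rose and 13 fell by at least 4-fold. High dose and air rats shared each of the 4 slides, and 93.1% of the called genes had the same sign on all 4. These genes were called from the same arrays, so that share is no independent support for the calls. Of these groups, slide 3 held only air rat 4 and high dose rat 75, and slide 4 only air rat 3 and high dose rat 77. Differences within a slide, here and below, therefore rest on few animals. The split of the calls moved with the scaling: 57.7% of them were increases with the normalization used, 43.6% with median centring, 46.1% with the authors' own values and 47% with the Cy5 signal alone.

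**Figure D1:**
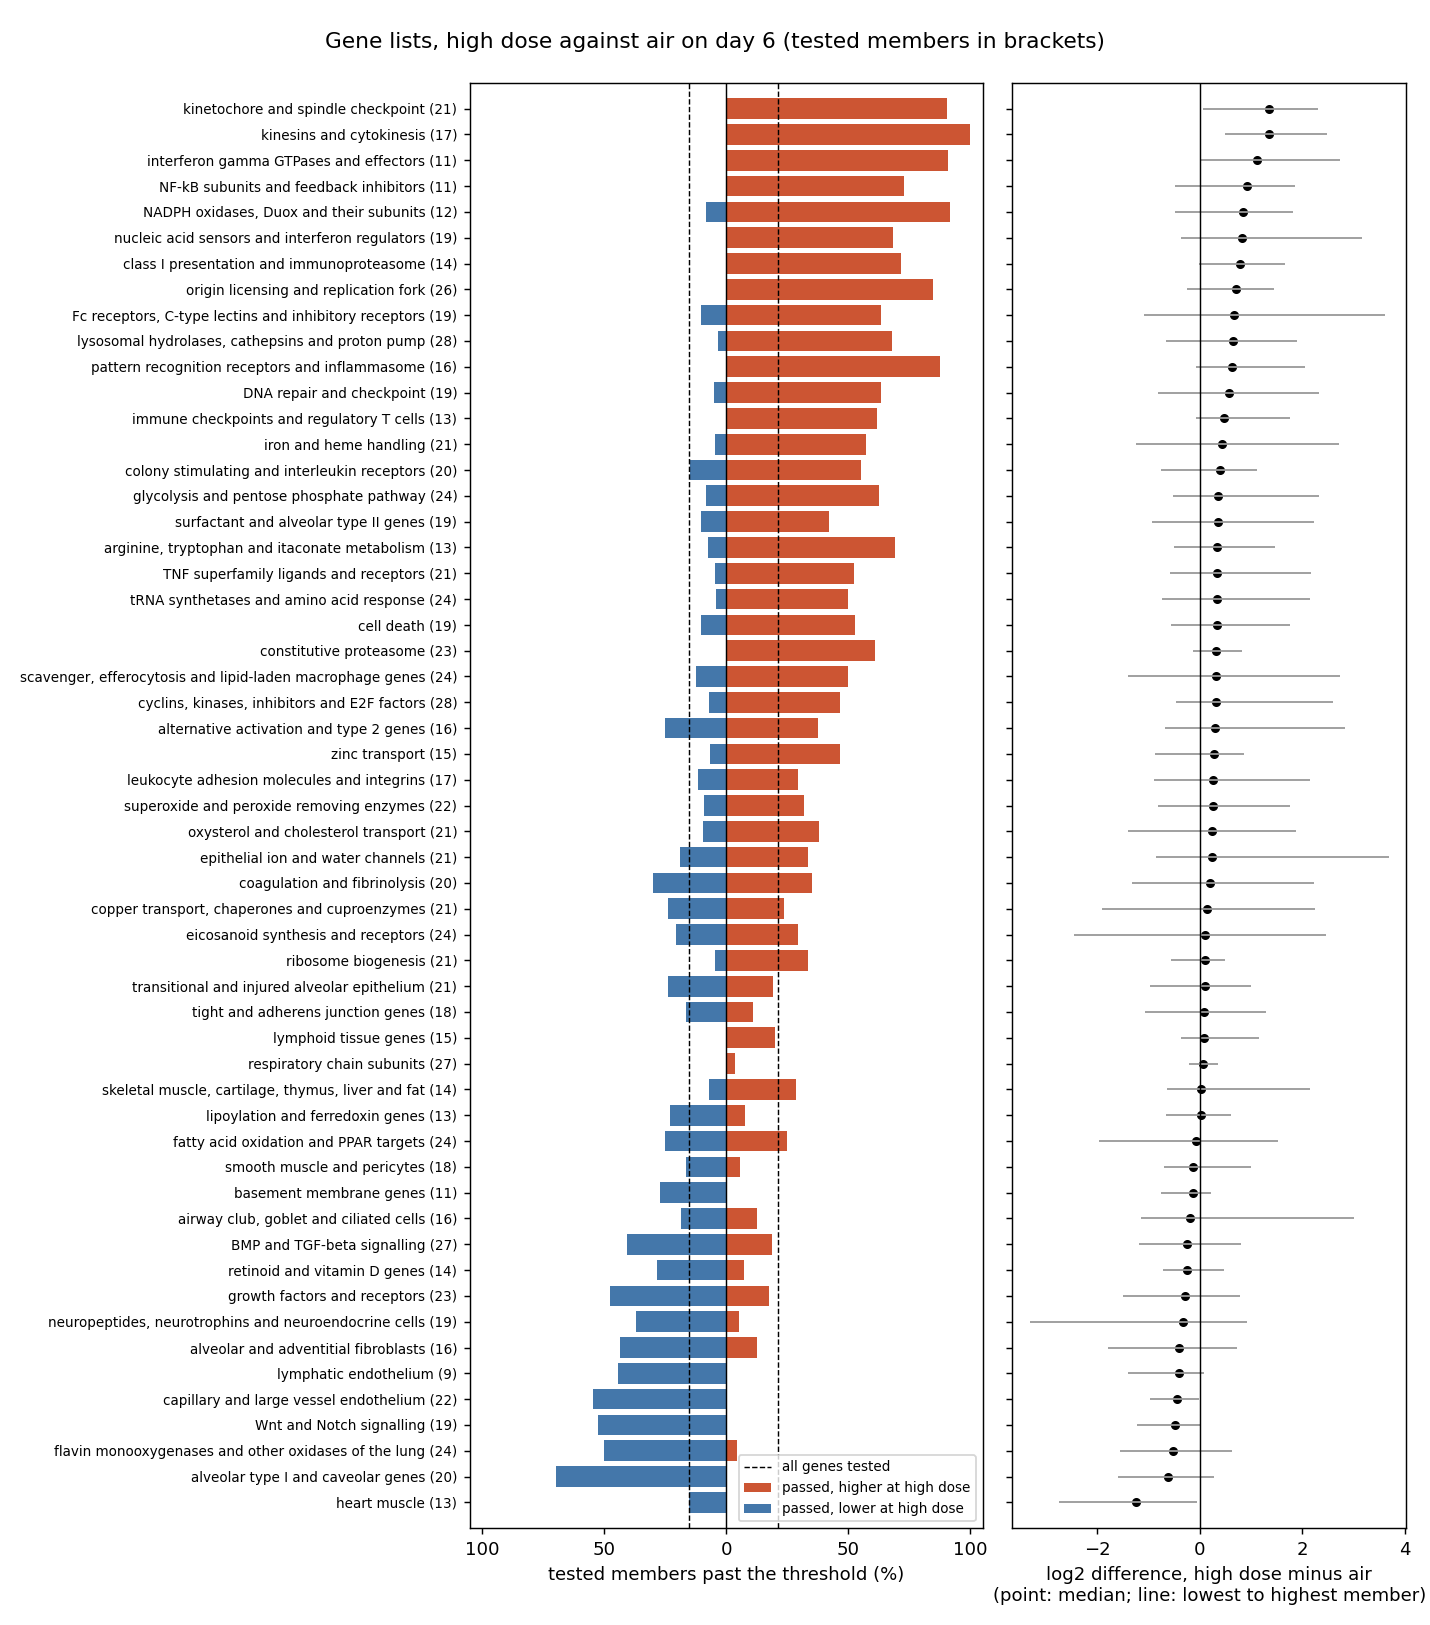
Gene lists at the high dose against air on day 6. Left, the share of tested members (in %, number in brackets) that rose (red, to the right) or fell (blue, to the left), with dashed lines at the shares of all genes tested, 21.1% and 15.4%. Right, the median (point) and the lowest to highest member (line) of the log2 difference. Lists are ordered by their median, from kinetochore genes (1.35) down to type I genes (-0.63) and heart muscle genes (-1.25, 2 of 13 called).

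Receptors that sense microbes and damaged cells rose together. Of 16 tested members of the pattern recognition and inflammasome list, 14 rose and 0 fell, with a median of 0.62 (0.45 to 0.77 within the slides). Tlr2, which senses bacterial lipoproteins, read -0.32, -0.17, -0.37, -0.34 and -0.55 in air rats and 1.63, 1.40, 1.91, 1.57 and 1.82 in exposed rats. The groups did not overlap, and the difference was 2.01 ± 0.12 (adjusted p = 2.46e-13). Il1b, the cytokine that inflammasomes process, read 1.48, 1.78, 1.62, 1.65 and 1.37 and 3.50, 3.45, 3.80, 3.73 and 3.63, a rise of 2.04 ± 0.26 (adjusted p = 5.27e-07) with no overlap. Cd14, the co-receptor for endotoxin, rose by 1.89 ± 0.18 and Casp4, the caspase that senses cytosolic endotoxin, by 1.03 ± 0.09. The inflammasome sensor Nlrp3 read -0.22, -0.21, -0.36, -0.38 and -0.35 and 0.11, -0.09, 0.11, -0.05 and 0.06, a small rise of 0.33 ± 0.06 (adjusted p = 8.84e-05). It was near the lower limit of the array, above background in 2 of 5 air rats and in all 5 exposed rats, and with the scanner's processed signals its difference was 1.23. Il18 gave 0.15 ± 0.23 and missed the threshold (adjusted p = 0.647).

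Genes of the NF-kB pathway, the transcription factors that switch on cytokine genes, were higher, among them its own brakes. Of 11 tested members 8 rose and 0 fell, with a median of 0.93 (0.76 to 1.13 within slides). Bcl3, an atypical IkB protein that works in the nucleus, read -0.72, -0.53, -0.37, -0.27 and -0.39 in air rats and 0.97, 0.70, 1.41, 1.07 and 1.32 in exposed rats. That is a rise of 1.55 ± 0.13 (adjusted p = 1.91e-10) with no overlap between the groups. Birc3, a ubiquitin ligase of the TNF receptor complex, rose by 1.85 ± 0.17 and Nfkbie, an inhibitor that retains NF-kB in the cytoplasm, by 1.26 ± 0.11.

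The promoter of Bcl3 is shown because it holds the letters of an NF-kB site close to the start of the gene. Promoters are from RefSeq (assembly GRCr8), which gave one for 9245 of the 11331 tested genes with a symbol, and each covers 250 bases before and 50 after the start. Of these, the 250 bases before the start are printed 5′ to 3′ on the strand of the gene, with the motif in capitals. The motif searched for NF-kB was GGGANTTNC on either strand, N being any base.

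Bcl3 promoter: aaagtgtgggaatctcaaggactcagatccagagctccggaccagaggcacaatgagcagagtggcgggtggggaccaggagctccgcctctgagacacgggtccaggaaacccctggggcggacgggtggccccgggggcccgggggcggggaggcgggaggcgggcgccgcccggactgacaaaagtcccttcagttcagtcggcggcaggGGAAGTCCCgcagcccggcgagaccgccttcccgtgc

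This stretch lies at chr1:88613556-88613805 on the minus strand, and its match begins 37 bases before the start. The letters were present in 6.28% of the promoters of genes that rose, 4.59% of those that fell and 4.73% of all tested. With a change of at least 1.5-fold the shares were 7.20% and 5.29%. A match is a description of letters, not evidence of binding.

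In the TNF superfamily, ligands and receptors by which leukocytes signal to each other, 11 of 21 tested members rose and 1 fell (median 0.33). Tnf itself read -0.46, 0.22, 0.16, 0.73 and -0.40 in air rats and 1.64, 1.79, 1.34, 2.16 and 2.48 in exposed rats. The air rats were widely scattered, the groups did not overlap, and the rise was 1.83 ± 0.30 (adjusted p = 1.62e-05). Tnfrsf4, the T cell co-stimulator OX40, read 0.62, 0.34, 0.33, 0.52 and 0.38 and 2.72, 1.89, 2.99, 2.40 and 2.82, a rise of 2.12 ± 0.15 (adjusted p = 1.45e-11). Tnfrsf9, the co-stimulator 4-1BB, and its ligand Tnfsf9 rose by 2.0 ± 0.13 and 2.16 ± 0.14. Tnfrsf11b, the decoy receptor osteoprotegerin, fell (difference -0.59 ± 0.14). Among colony stimulating factors and interleukin receptors 11 of 20 rose and 3 fell (median 0.40, from 0.10 on 1 slide to 0.52). The macrophage growth factor Csf1 rose by 0.95 ± 0.12 and the granulocyte receptor Csf3r by 1.12 ± 0.19, Csf3 itself gave 0.20 ± 0.23 (adjusted p = 0.536), and the receptor Lifr fell (difference -0.76 ± 0.17). Of 13 tested checkpoint and regulatory T cell genes 8 rose and 0 fell (median 0.47). Icos, a co-stimulator on activated T cells, rose by 1.75 ± 0.16 and Cd86, a co-stimulator on antigen-presenting cells, by 1.13 ± 0.17, or by 2.75 and 2.60 with the processed signals. Foxp3, the factor of regulatory T cells, rose by 0.47 ± 0.12 (adjusted p = 0.00285) with overlapping groups and was above background in only 1 of 5 air rats. In whole lung RNA, a greater number of cells of a type and more RNA per cell cannot be told apart, here and in every result that follows.

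Interferon genes rose as a group. Among nucleic acid sensors and interferon regulators 13 of 19 tested members rose and 0 fell (median 0.82, 0.49 to 0.86 within slides). Sting1, the adaptor of the cytosolic DNA sensor, read 0.64, 0.99, 0.92, 0.88 and 0.65 in air rats and 2.48, 2.39, 2.59, 2.77 and 2.84 in exposed rats, a rise of 1.80 ± 0.12 (adjusted p = 1.55e-12) without overlap. The RNA sensor Dhx58 rose by 1.82 ± 0.12 and Stat2, a subunit of the interferon-activated factor, by 1.26 ± 0.11. Of 11 tested effectors known as targets of interferon gamma, 10 rose and 0 fell (median 1.12, 0.90 to 1.31). Gbp2, a GTPase that attacks vacuoles holding pathogens, read 1.82, 1.77, 2.23, 1.79 and 1.63 and 3.16, 3.05, 3.28, 3.23 and 2.94, a rise of 1.28 ± 0.15 (adjusted p = 9.53e-08). Gch1, which starts the synthesis of the nitric oxide synthase cofactor tetrahydrobiopterin, read -0.67, -0.95, -0.65, -1.14 and -0.86 and 1.84, 1.63, 2.58, 1.81 and 1.57. It rose by 2.74 ± 0.18 (adjusted p = 2.39e-12), with rat 77 well above the other 4 exposed rats.

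Antigen presentation on MHC class I and the proteasome that feeds it also rose. Of 14 tested class I and immunoproteasome genes 10 rose and 0 fell (median 0.78), against 14 of 23 constitutive proteasome subunits with 0 falling (median 0.31). Without air rat 4, 9 of the 14 class I genes but only 9 of the 23 constitutive subunits rose. In both lists 0 fell, and the medians were 0.80 and 0.30. Tapbp, the chaperone tapasin that loads peptides, read -0.02, -0.10, -0.10, -0.07 and -0.24 in air rats and 1.3, 0.95, 1.48, 1.22 and 1.25 in exposed rats, a rise of 1.34 ± 0.12 (adjusted p = 1.52e-09). The immunoproteasome subunit Psmb10 rose by 0.90 ± 0.09 and the activator Psme2 by 0.91 ± 0.10. Of the constitutive subunits, Psma5 rose by 0.78 ± 0.09 and the deubiquitinase Psmd14 by 0.81 ± 0.15. The difference between these lists was not tested.

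Promoters of Rsad2, an interferon-induced antiviral enzyme, and of Gbp2 are shown because both hold the interferon-stimulated response element, searched as GAAANNGAA on either strand.

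Rsad2 promoter: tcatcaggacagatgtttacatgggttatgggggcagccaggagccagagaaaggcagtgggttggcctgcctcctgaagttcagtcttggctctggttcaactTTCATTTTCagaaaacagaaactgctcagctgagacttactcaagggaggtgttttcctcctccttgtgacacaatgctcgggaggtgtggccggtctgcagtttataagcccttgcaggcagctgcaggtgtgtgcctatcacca
Gbp2 promoter: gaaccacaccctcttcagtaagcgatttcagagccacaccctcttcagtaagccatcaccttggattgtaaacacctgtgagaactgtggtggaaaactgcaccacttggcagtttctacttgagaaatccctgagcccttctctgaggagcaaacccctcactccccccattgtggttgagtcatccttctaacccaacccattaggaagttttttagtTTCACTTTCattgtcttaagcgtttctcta

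The Rsad2 stretch is at chr6:48788121-48788370 on the minus strand with its match beginning 146 bases before the start, and that of Gbp2 at chr2:234005477-234005726 on the plus strand with the match beginning 30 bases before it. Both matches are on the opposite strand of the gene. These letters were in 6 of 9 promoters of the interferon gamma list and 7 of 13 of the class I list, but in 3 of 16 of the sensor list, against 7.41% of all tested promoters. They were in 9.85% of the promoters of genes that rose and 6.47% of those that fell, or 12.3% and 5.29% with at least a 1.5-fold change. Rsad2 itself read 2.70, 2.73, 2.91, 3.23 and 2.57 in air rats and 6.81, 6.36, 6.89, 7.00 and 6.31 in exposed rats.

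**Figure D2:**
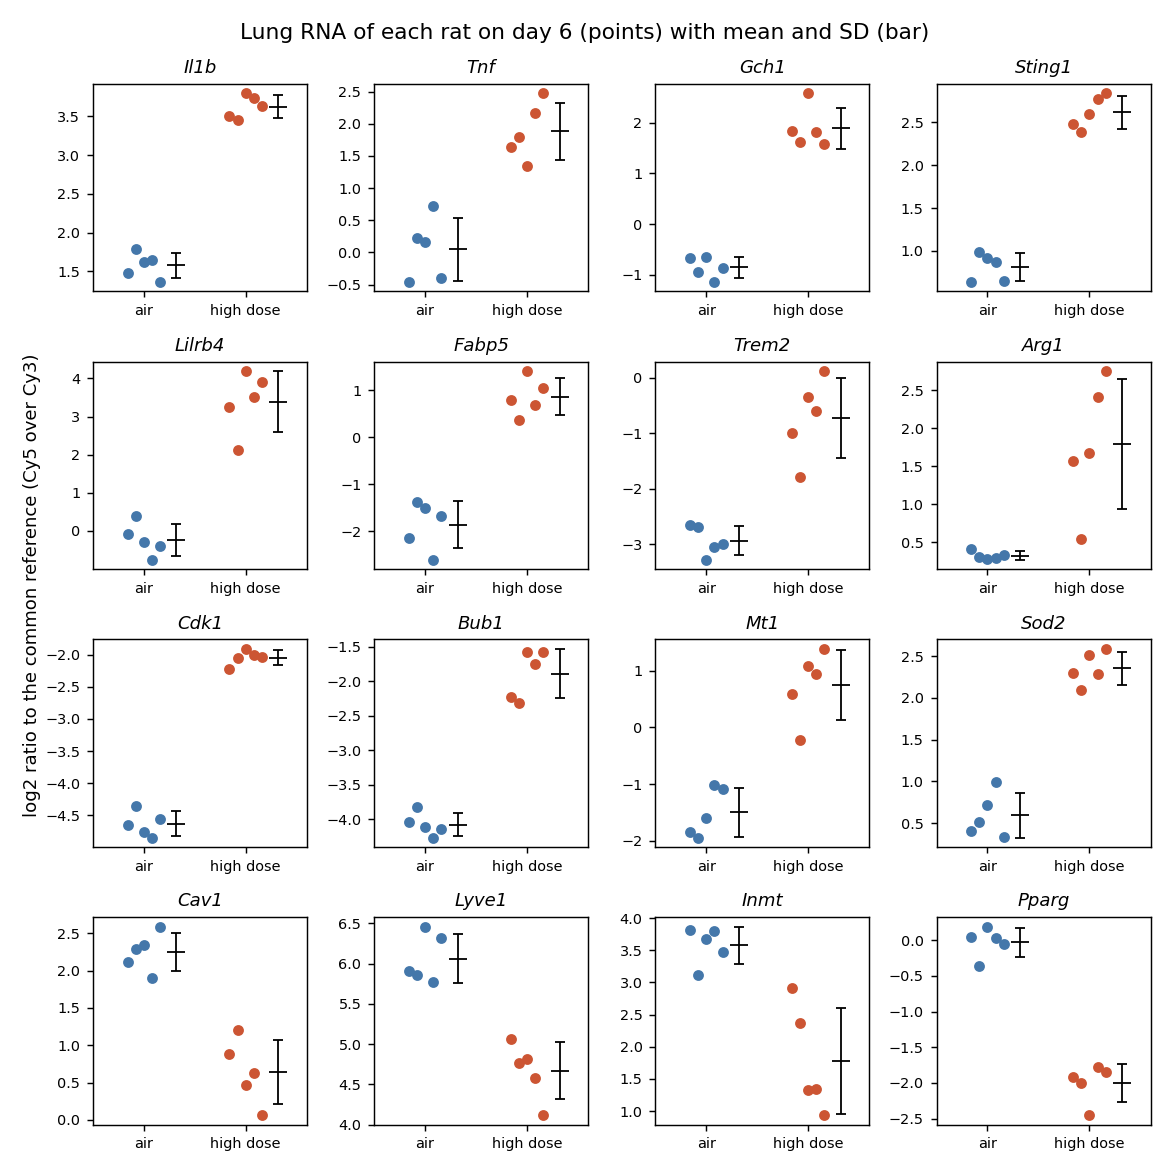
Log2 ratio to the common reference (vertical axis) of 16 genes in each air rat (blue) and high dose rat (red) on day 6, with mean and SD (black). In every panel the groups do not overlap, as in Cdk1 (air -4.84 to -4.35, high dose -2.23 to -1.91), and the spread among exposed rats is widest for Arg1, Trem2, Lilrb4 and Inmt.

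In the arginine, tryptophan and itaconate list 9 of 13 tested members rose and 1 fell (median 0.34). These increases again include Acod1 and Nos2, which could enter the test through the high dose rats alone. Acod1, which makes the antimicrobial metabolite itaconate, read -0.03, -0.15, -0.10, -0.08 and -0.16 in air rats and 1.23, 0.62, 1.81, 1.38 and 1.58 in exposed rats. Its probe was not well above background in any air rat, so that its level there is only a limit. In the Cy5 channel alone it was at least 3.03-fold higher in exposed rats, and the ratios to the reference differed by 2.69-fold (adjusted p = 3.68e-10). Arg1, the arginase that competes for the substrate of nitric oxide synthase, read 0.42, 0.31, 0.28, 0.29 and 0.34 and 1.57, 0.55, 1.68, 2.41 and 2.76. All exposed rats were above the air rats but unequally so, rat 76 by little and rats 78 and 79 by most (difference 1.46 ± 0.35, adjusted p = 0.0015). On the slide that held rat 76 the difference was 0.17, and on the other 3 it was 1.27 to 2.27. Nos2, the inducible nitric oxide synthase, was above background in the exposed rats alone and was at least 1.42-fold higher in the Cy5 channel, against 1.31-fold as ratios to the reference (adjusted p = 0.000128), and endothelial Nos3 fell (difference -0.51 ± 0.16).

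Genes of alternative activation were split. Of 16 tested members 6 rose and 4 fell, and the median was 0.28 (-0.17 to 0.36 within slides). Chi3l1, a secreted chitinase-like protein, read 1.81, 2.05, 2.53, 2.80 and 1.89 in air rats and 5.43, 4.74, 5.35, 4.88 and 4.84 in exposed rats, a rise of 2.83 ± 0.29 (adjusted p = 1.39e-08) that was 0.91 with the scanner's processed signals and 4.01 with Cy5 alone. Retnla, a cysteine-rich protein of type 2 responses, read 3.81, 3.58, 4.59, 4.13 and 3.15 and 5.6, 4.83, 5.62, 5.16 and 5.07. It rose by 1.40 ± 0.33 (adjusted p = 0.00143), but by 0.36 with the processed signals, where it missed the threshold (adjusted p = 0.304), and by 3.86 with Cy5 alone (adjusted p = 3.12e-09). The lectin Clec10a rose by 1.70 ± 0.19, the lipoxygenase Alox15 fell (difference -0.69 ± 0.14, or -1.68 with the processed signals), and the mannose receptor Mrc1 gave -0.46 ± 0.22 (adjusted p = 0.101).

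Of 24 tested genes of macrophages that clear debris and lipid 12 rose, 3 fell and 9 did not pass (median 0.31). Trem2, a lipid-sensing receptor, read -2.66, -2.70, -3.28, -3.06 and -3.0 in air rats and -1.0, -1.79, -0.35, -0.60 and 0.12 in exposed rats, a rise of 2.22 ± 0.24 (adjusted p = 3.14e-08). Fabp5, a fatty acid carrier, read -2.14, -1.38, -1.51, -2.60 and -1.67 and 0.80, 0.38, 1.41, 0.69 and 1.06, a rise of 2.73 ± 0.25 (adjusted p = 1.48e-09). Neither gene's groups overlapped. The scavenger receptor Msr1 rose by 1.97 ± 0.24 and Gpnmb, a glycoprotein of lysosome-rich macrophages, by 1.71 ± 0.33. Lipoprotein lipase, Lpl, and the cholesterol exporter Abcg1 fell (differences -1.31 ± 0.18 and -1.41 ± 0.28), and the alveolar macrophage receptor Marco gave -0.29 ± 0.14 (adjusted p = 0.115), with its probe well above background in none of the exposed rats and in 1 air rat. In the list of oxysterol and cholesterol transport 8 of 21 rose and 2 fell (median 0.24), with Gpr183, a receptor for oxysterols, up by 1.88 ± 0.17.

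Immunoglobulin receptors, C-type lectins and inhibitory receptors of myeloid cells gave 12 increases and 2 decreases among 19 tested members (median 0.67, 0.22 to 0.86 within slides). Lilrb4, an inhibitory receptor, had the largest rise of the list and read -0.09, 0.38, -0.30, -0.75 and -0.39 in air rats and 3.25, 2.12, 4.20, 3.50 and 3.90 in exposed rats. That is 3.62 ± 0.25 (adjusted p = 4.92e-12), or 12.3-fold, with rat 76 the lowest exposed animal. The inhibitory receptor Cd300a rose by 2.05 ± 0.20 and Fcgr1a, the high-affinity IgG receptor, by 1.91 ± 0.15, and the endothelial lectin Clec1a fell (difference -0.93 ± 0.22). Lysosomal genes, all 28 of which were measured, gave 19 increases and 1 decrease (median 0.65, 0.41 to 0.77). Lgmn, an asparaginyl endopeptidase, read 0.17, 0.41, 0.10, -0.16 and 0.07 and 1.66, 1.17, 2.37, 1.93 and 2.47, a rise of 1.80 ± 0.19 (adjusted p = 1.93e-08). Cathepsin C, Ctsc, rose by 1.12 ± 0.10 and the cholesterol-binding protein Npc2 by 1.47 ± 0.18, and the acid lipase Lipa fell (difference -0.67 ± 0.17). Among adhesion molecules 5 of 17 rose and 2 fell, with a median of 0.25 (-0.06 to 0.34 within slides). Itgam, the CD11b chain of monocytes and neutrophils, read 0.43, 0.67, 0.34, 0.14 and 0.22 and 2.40, 1.61, 3.15, 2.43 and 2.92, a rise of 2.14 ± 0.19 (adjusted p = 4.55e-10). The junction molecule Jam2 fell (difference -0.90 ± 0.18).

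Lymphoid tissue genes stood at 3 higher and 0 lower of 15 tested (median 0.07), with all rats a share of increases near that of all genes. Without air rat 4, whose mean of this list was the highest, 5 of the 15 rose and 0 fell (median 0.28). Ltb, the lymphotoxin that organizes follicles, rose by 1.15 ± 0.17 and the homing receptor Ccr7 by 0.49 ± 0.12.

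Clotting genes moved both ways, 7 of 20 tested members higher and 6 lower (median 0.19). F10, coagulation factor X, read -0.86, -0.99, -1.19, -0.80 and -0.84 in air rats and 0.91, 0.29, 1.33, 1.14 and 1.33 in exposed rats, a rise of 1.94 ± 0.19 (adjusted p = 4.75e-09), and was above background in only 1 air rat. Tissue factor, F3, the trigger of clotting, rose by 0.98 ± 0.19. The anticoagulant receptor thrombomodulin, Thbd, read 6.18, 6.10, 6.44, 6.31 and 6.5 and 5.11, 5.45, 4.78, 4.94 and 4.62 and fell (difference -1.33 ± 0.18, adjusted p = 1.67e-06), without overlap.

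The eicosanoid list gave 7 increases and 5 decreases of 24 (median 0.10, -0.01 with median centring and also below 0 with processed signals). It held some of the widest shifts in opposite directions. Pla2g7, which degrades platelet-activating factor, read 0.46, 0.21, -0.09, 0.03 and -0.33 in air rats and 1.84, 1.21, 3.25, 2.60 and 3.64 in exposed rats, a rise of 2.45 ± 0.32 (adjusted p = 5.28e-07). Pla2g2d, a secreted phospholipase of resting dendritic cells and macrophages, read 2.65, 2.46, 2.82, 3.02 and 2.90 and 0.00, 0.00, 0.62, 0.30 and 0.66. It fell by 2.45 ± 0.24 (adjusted p = 4.78e-09). The prostaglandin E2 receptor Ptger2 rose by 1.04 ± 0.14, or by 1.82 with the processed signals, 5-lipoxygenase, Alox5, fell (difference -0.83 ± 0.16), and the inducible cyclooxygenase Ptgs2 gave 0.07 ± 0.13 (adjusted p = 0.689).

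Enzymes that make superoxide or hydrogen peroxide were nearly all higher. Of 12 tested NADPH oxidase and Duox genes 11 rose and 1 fell (median 0.84, 0.60 to 1.05 within slides). Duoxa1, the maturation factor of the airway oxidase Duox1, read -1.32, -1.07, -0.71, -0.89 and -1.63 in air rats and 0.65, 0.52, 0.67, 0.70 and 0.89 in exposed rats, a rise of 1.81 ± 0.16 (adjusted p = 4.36e-10). Duox1 rose by 1.69 ± 0.24 and Ncf4, a subunit of the phagocyte oxidase, by 1.55 ± 0.14. Nox4, the constitutive oxidase of vessels and fibroblasts, fell (difference -0.48 ± 0.13).

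Enzymes that remove these oxidants moved less uniformly, with 7 of 22 higher and 2 lower (median 0.25). The 3 superoxide dismutases differed. The mitochondrial manganese enzyme Sod2 read 0.41, 0.52, 0.71, 0.99 and 0.33 in air rats and 2.29, 2.10, 2.52, 2.28 and 2.59 in exposed rats and rose by 1.76 ± 0.15 (adjusted p = 4.14e-10). The extracellular copper and zinc enzyme Sod3 read 0.67, 0.61, 1.17, 0.65 and 0.92 and 0.30, 0.11, -0.06, 0.04 and -0.49 and fell (difference -0.83 ± 0.14, adjusted p = 3.52e-05). The cytosolic copper and zinc enzyme Sod1 gave -0.09 ± 0.09 and catalase, Cat, 0.08 ± 0.23, and neither passed the test (adjusted p = 0.491 and 0.812). Peroxiredoxin Prdx5 rose by 1.29 ± 0.22 and glutaredoxin Glrx by 1.48 ± 0.14.

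Genes that carry copper gave 5 increases and 5 decreases among 21 tested (median 0.13), a share of 47.6% against 36.5% of all genes. The metal-binding metallothioneins had the largest increases of the list. Mt1 read -1.84, -1.94, -1.61, -1.02 and -1.09 in air rats and 0.59, -0.23, 1.07, 0.94 and 1.38 in exposed rats, a rise of 2.25 ± 0.22 (adjusted p = 4.09e-09). Mt2A read -2.99, -3.07, -2.50, -1.88 and -1.89 and -0.91, -1.65, -0.17, -0.42 and -0.03, a rise of 1.83 ± 0.30 (adjusted p = 2.29e-05). In both genes rat 76 was the lowest exposed rat and air rats 4 and 5 the highest air rats, and neither gene's groups overlapped. Ceruloplasmin, Cp, the copper-carrying ferroxidase of plasma, read 1.12, 1.19, 1.13, 1.20 and 1.57 and 2.45, 2.15, 2.53, 2.18 and 2.11, a rise of 1.04 ± 0.13 (adjusted p = 2.58e-07).

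The copper-exporting pump Atp7a read 0.80, 0.73, 0.88, 0.73 and 0.95 in air rats and 0.42, 0.51, 0.57, 0.59 and 0.50 in exposed rats. The small difference of -0.30 ± 0.10 (adjusted p = 0.0251) missed the threshold without air rat 3, air rat 5 or high dose rat 75 and with median centring (adjusted p between 0.0526 and 0.0676). The related pump Atp7b gave -0.11 ± 0.12 (adjusted p = 0.495), and the uptake channel Slc31a1 was too dim to be tested. Aoc3, a copper amine oxidase of endothelium and smooth muscle, read 3.98, 4.28, 4.24, 4.03 and 4.12 and 2.60, 2.80, 1.86, 2.36 and 1.48. It was the largest decrease of the list (difference -1.91 ± 0.15, adjusted p = 1.37e-10).

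The Mt1 promoter is shown because metallothioneins are the classical targets of metal response elements, searched here with the loose core TGCNCNC on either strand.

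Mt1 promoter: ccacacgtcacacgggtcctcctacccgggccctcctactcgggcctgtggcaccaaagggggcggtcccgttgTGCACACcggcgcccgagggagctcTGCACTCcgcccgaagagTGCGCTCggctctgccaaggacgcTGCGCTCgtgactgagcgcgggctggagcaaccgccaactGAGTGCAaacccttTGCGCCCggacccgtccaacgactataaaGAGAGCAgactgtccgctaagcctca

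The stretch lies at chr19:10832976-10833225 on the minus strand and holds 7 matches, beginning between 176 and 26 bases before the start. At least 1 match was in 59.6% of all tested promoters, 56.7% of those of genes that rose and 60.6% of those of genes that fell. In the copper list 14 of 20 promoters held it.

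Other metals followed their own patterns. Of 15 zinc transport genes 7 rose and 1 fell (median 0.28). The importer Slc39a8 rose by 0.85 ± 0.16 and the Golgi transporter Slc30a7 by 0.51 ± 0.08, and Slc39a2 fell (difference -0.88 ± 0.24, or -2.61 with the processed signals). Iron and heme genes gave 12 increases and 1 decrease of 21 (median 0.43, 0.21 to 0.52 within slides). Hmox1, heme oxygenase, read -0.79, -1.21, -1.09, -1.54 and -1.35 in air rats and 0.83, 0.32, 2.07, 1.77 and 2.58 in exposed rats, a rise of 2.71 ± 0.29 (adjusted p = 2.65e-08) that again was smallest in rat 76. Haptoglobin, Hp, which binds free hemoglobin, read 1.15, 1.46, 1.47, 2.26 and 1.31 and 3.96, 3.98, 3.62, 3.82 and 3.55, a rise of 2.25 ± 0.18 (adjusted p = 1.76e-10), or of 2.44 without air rat 4. The iron importer Slc11a2 rose by 1.32 ± 0.12 and the transferrin receptor Tfrc by 0.85 ± 0.11. The heme synthesis enzyme Alas1 fell (difference -0.63 ± 0.20, adjusted p = 0.0147), and missed the threshold with median centring (adjusted p = 0.0848), without air rat 4 (0.0603) and without high dose rat 75 (0.0515). Genes of protein lipoylation and ferredoxins, the pathway that copper is known to disturb in cuproptosis, gave 1 increase and 3 decreases of 13 (median 0.02, below 0 under 4 of the other scalings). Pdha1, a subunit of pyruvate dehydrogenase, fell (difference -0.66 ± 0.08), and the ferredoxin reductase Fdxr rose by 0.62 ± 0.17.

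Membrane and caveolar genes of the thin gas-exchange cells fell. Of 20 tested alveolar type I and caveolar genes 14 fell and 0 rose (median -0.63, -0.84 to -0.28 within slides). Cav1, the coat protein of caveolae, which endothelium makes as well, read 2.12, 2.28, 2.34, 1.90 and 2.59 in air rats and 0.89, 1.20, 0.46, 0.62 and 0.06 in exposed rats. It fell by 1.6 ± 0.14 (adjusted p = 8.34e-10), with no overlap and rat 79 lowest. Cav2 and the type I membrane protein Pdpn fell too (differences -1.31 ± 0.20 and -0.63 ± 0.13). The water channel Aqp5 gave -0.19 ± 0.15 and did not pass (adjusted p = 0.345). With Cy5 alone it fell by 0.57 (adjusted p = 0.00389).

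The list of surfactant and type II genes showed a different picture, 8 of 19 tested genes higher and 2 lower (median 0.35, 0.10 to 0.51). Which cells of the lung made this RNA was not tested. Ctsh, a cathepsin that trims surfactant protein precursors, read 2.05, 2.0, 2.12, 1.11 and 1.84 in air rats and 4.27, 3.91, 4.36, 3.85 and 3.86 in exposed rats, a rise of 2.23 ± 0.29 (adjusted p = 7.59e-07) with air rat 4 lowest, or of 2.05 without it. The aspartic protease Napsa, which acts in the same step, rose by 1.0 ± 0.16, and Etv5, a transcription factor that maintains type II cells, fell (difference -0.93 ± 0.14). The surfactant genes Sftpa1, Sftpb and Sftpd gave 0.39 ± 0.17, 0.05 ± 0.26 and 0.28 ± 0.17 and did not pass (adjusted p = 0.0738, 0.896 and 0.191). With Cy5 alone Sftpa1 and Sftpd rose (differences 1.32 and 0.61), and they also rose with slide as a block (0.42 and 0.29).

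The genes of transitional, injured epithelium gave 4 increases and 5 decreases of 21 (median 0.09). The keratins Krt8 and Krt19 gave 0.19 ± 0.22 and -0.11 ± 0.15 (adjusted p = 0.541 and 0.622), the urokinase receptor Plaur rose by 0.99 ± 0.15 (adjusted p = 4.8e-06), and the calcium-binding proteins S100a6 and Anxa3 fell (differences -0.98 ± 0.14 and -0.82 ± 0.12). The claudin Cldn4 gave 0.50 ± 0.20 (adjusted p = 0.052), and 0.78 without air rat 4, where it passed (adjusted p = 0.000184). Ion and water channels gave 7 increases and 4 decreases of 21 (median 0.23). Cftr, the chloride channel of airway and alveolar fluid, read 2.89, 3.02, 2.46, 3.30 and 2.96 in air rats and 4.85, 4.48, 4.86, 4.85 and 5.24 in exposed rats, a rise of 1.93 ± 0.28 (adjusted p = 2.95e-06) at its brighter probe, or 1.26 over the mean of its 2 probes. Kcnn4, a calcium-activated potassium channel, read -2.39, -2.17, -2.56, -2.29 and -2.59 and -0.42, -1.02, 0.12, -0.09 and 0.47, a rise of 2.21 ± 0.18 (adjusted p = 2.11e-10). The sodium channel subunits Scnn1a, Scnn1b and Scnn1g gave -0.31 ± 0.20, 0.38 ± 0.17 and -0.07 ± 0.18, and none of the 3 passed (adjusted p = 0.229, 0.0843 and 0.808). With slide as a block Scnn1a and Scnn1b did (adjusted p = 0.0287 and 0.0261).

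Junction genes gave 2 increases and 3 decreases of 18 (median 0.08, below 0 with median centring and with processed signals), Cldn10 rising by 1.29 ± 0.21 and Cldn1 falling (difference -1.07 ± 0.19, or -2.14 with the processed signals), both being claudins of tight junctions. Of 11 tested basement membrane genes 3 fell and 0 rose (median -0.14), or 4 and 1 without air rat 4 (median -0.18). Col4a4, a collagen chain of the alveolar basement membrane, fell (difference -0.76 ± 0.19), but missed the threshold with processed signals (adjusted p = 0.243). The others were Agrn and Lama5 (differences -0.38 and -0.30). Agrn missed the threshold with median centring and over the mean of its 2 probes (adjusted p = 0.179 and 0.236). Those probes had opposite signs (-0.381 and 0.029). Lama5 missed it under 5 alternatives.

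Among capillary and large vessel endothelial genes 12 of 22 were lower and 0 higher (median -0.45, -0.59 to -0.17 within slides). Apln, the tip cell ligand apelin, read 2.58, 3.05, 2.91, 1.98 and 3.06 in air rats and 1.83, 1.97, 1.62, 2.19 and 1.13 in exposed rats, a decrease with a difference of -0.97 ± 0.18 (adjusted p = 7.12e-05) with air rat 4 inside the exposed range, or of -1.15 without it. Flt1, a VEGF receptor, and Ednrb, an endothelin receptor of aerocytes, fell (differences -0.67 ± 0.11 and -0.88 ± 0.27). The other VEGF receptor, Kdr, and the capillary carbonic anhydrase Car4 gave -0.42 ± 0.18 and -0.34 ± 0.14 and did not pass (adjusted p = 0.0616 and 0.0597). Both passed with slide as a block.

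Lymphatic genes gave 4 decreases and 0 increases of 9 (median -0.41). Lyve1, a hyaluronan receptor of lymphatic vessels and some macrophages, read 5.91, 5.87, 6.46, 5.77 and 6.32 in air rats and 5.06, 4.76, 4.82, 4.58 and 4.11 in exposed rats, a decrease with a difference of -1.40 ± 0.28 (adjusted p = 0.000212) without overlap. Among fibroblast genes 7 of 16 fell and 2 rose (median -0.41, -0.60 to -0.17). Inmt, a methyltransferase abundant in alveolar fibroblasts, read 3.81, 3.11, 3.67, 3.80 and 3.47 and 2.91, 2.36, 1.32, 1.35 and 0.93. The exposed rats were widely spread, rat 75 being nearest to the air rats (difference -1.80 ± 0.35, adjusted p = 0.000157). The elastic fibre protein Mfap5 fell (difference -0.81 ± 0.14) and lumican, Lum, rose by 0.72 ± 0.20. Smooth muscle and pericyte genes gave 3 decreases and 1 increase of 18 (median -0.14), with Myh11, smooth muscle myosin, falling (difference -0.69 ± 0.21) and Notch3, a pericyte receptor, rising by 1.0 ± 0.15.

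**Figure D3:**
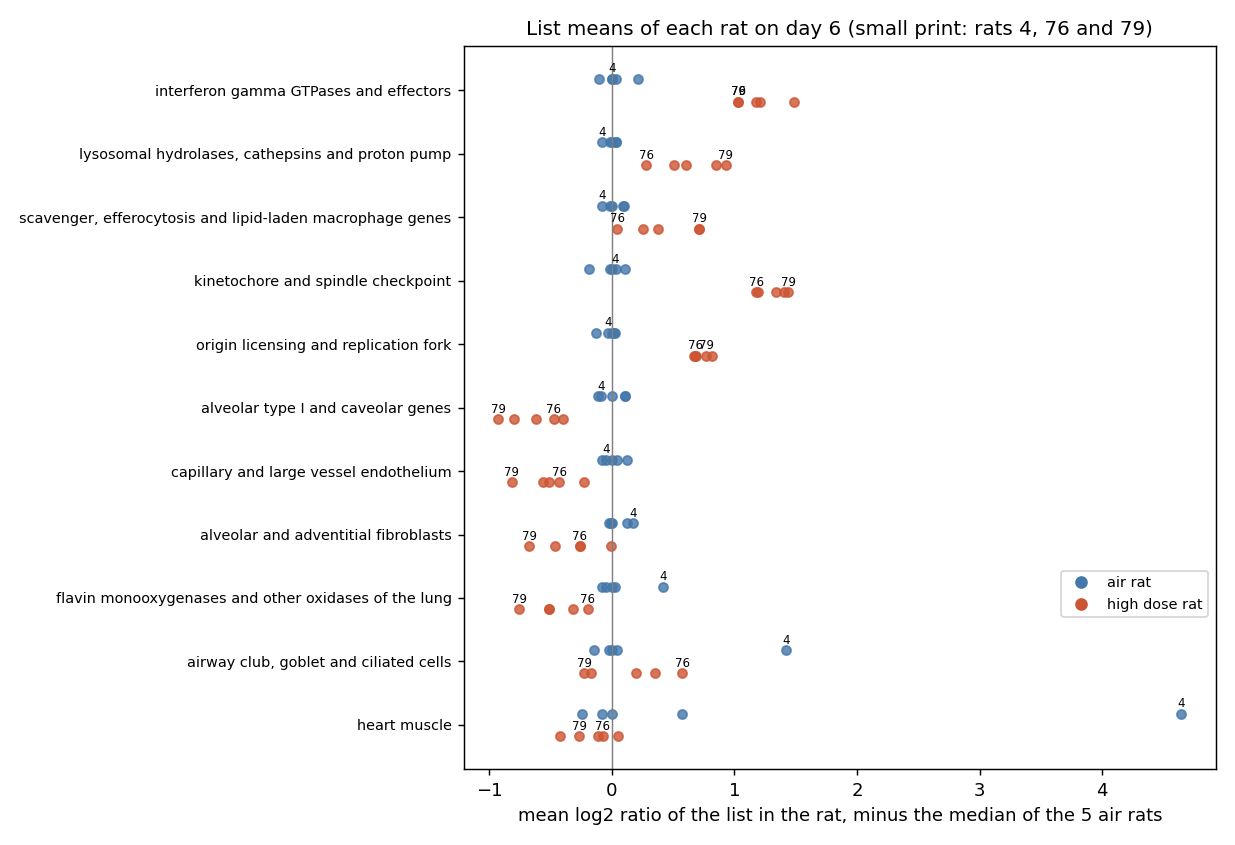
Mean log2 ratio of 11 gene lists in each air rat (blue) and high dose rat (red), minus the median of the 5 air rats (horizontal axis). Numbers mark air rat 4, far to the right in the heart muscle and airway lists, and high dose rats 76 and 79. Rat 76 is the lowest exposed rat for lysosomal and scavenger genes and rat 79 the lowest for type I, endothelial and fibroblast genes.

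Growth factor and developmental signalling genes were lower. Of 23 growth factors and their receptors 11 fell and 4 rose (median -0.29). Errfi1, a feedback inhibitor of the EGF receptor, read 1.88, 1.58, 1.94, 1.94 and 2.12 in air rats and 0.04, 0.46, 0.35, 0.81 and 0.30 in exposed rats, a decrease with a difference of -1.5 ± 0.20 (adjusted p = 7.75e-07). Pdgfa, the ligand that supports alveolar fibroblasts, read 0.96, 0.98, 0.93, 0.65 and 1.22 and 0.34, 0.42, -0.46, -0.09 and -0.39, a decrease with a difference of -0.98 ± 0.13 (adjusted p = 8.3e-07). Both genes' groups were separate. Met, the receptor of hepatocyte growth factor, rose by 0.79 ± 0.09. In the BMP and TGF-beta list 11 of 27 fell and 5 rose (median -0.26). The BMP antagonist Chrdl1, the endothelial receptor Acvrl1 and the inhibitor Smad7 fell (differences -1.18 ± 0.16, -0.77 ± 0.12 and -0.83 ± 0.11), and Inhba, an activin subunit, rose by 0.80 ± 0.19. Of 19 Wnt and Notch genes 10 fell and 0 rose (median -0.48, -0.66 to -0.26). Notch1 read 2.53, 2.53, 2.62, 2.73 and 2.72 and 1.89, 1.77, 1.77, 1.93 and 1.92, a decrease with a difference of -0.77 ± 0.12 (adjusted p = 1.49e-05), and the Wnt receptor Fzd1 fell as well (difference -0.56 ± 0.13). These Notch1 values are from the brighter of its 2 probes, and the other gave a difference of only -0.148.

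All 17 tested kinesin and cytokinesis genes rose, each with the groups apart (median 1.35, 1.26 to 1.51 within slides). Of 21 kinetochore and spindle checkpoint genes 19 rose and 0 fell (median 1.35, 1.22 to 1.53), and of 26 origin and replication fork genes 22 rose and 0 fell (median 0.70, 0.63 to 0.83). Cyclins, their kinases and inhibitors gave 13 increases and 2 decreases of 28 (median 0.31), and DNA repair genes 12 and 1 of 19 (median 0.58). Cell division is named in the title of the study, and the lists were chosen with this known.

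Cdk1, the kinase that drives mitosis, read -4.65, -4.35, -4.76, -4.84 and -4.55 in air rats and -2.23, -2.05, -1.91, -2.0 and -2.03 in exposed rats, a rise of 2.58 ± 0.13, or 6.00-fold (adjusted p = 1.27e-14). Its exposed rats lay close together and far from the air rats. The spindle checkpoint kinase Bub1 read -4.04, -3.82, -4.10, -4.26 and -4.14 and -2.23, -2.31, -1.57, -1.75 and -1.57, a rise of 2.19 ± 0.16 (adjusted p = 2.39e-11). Mcm2, a subunit of the replicative helicase, read -2.37, -2.58, -2.54, -2.66 and -2.55 and -1.29, -1.04, -1.38, -1.32 and -1.66, a rise of 1.20 ± 0.10 (adjusted p = 1.44e-10). Cyclin A2, Ccna2, rose by 2.59 ± 0.20, the kinetochore protein Spc25 by 2.31 ± 0.19 and the spindle protein Aspm by 2.02 ± 0.17. Among the exceptions, the pocket protein Rbl2, which represses cell cycle genes, and Xrcc5, the Ku80 subunit of end joining, fell (differences -0.28 ± 0.09 and -0.81 ± 0.19, the former missing the threshold without air rat 2 and with median centring), and cyclin D1, Ccnd1, gave -0.23 ± 0.10 (adjusted p = 0.078). The markers Mki67 and Top2a had no probe under those symbols.

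Promoters of Cdk1 and Mcm2 are shown because division genes are known to be controlled through the cell cycle homology region (searched as TTTGAA) and the E2F site (searched as TTNGCGC), again on either strand.

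Cdk1 promoter: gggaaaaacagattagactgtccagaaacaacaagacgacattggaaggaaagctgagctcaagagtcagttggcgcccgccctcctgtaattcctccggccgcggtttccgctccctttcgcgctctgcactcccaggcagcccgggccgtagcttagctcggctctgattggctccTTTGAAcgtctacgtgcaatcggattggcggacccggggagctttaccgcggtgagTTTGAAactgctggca
Mcm2 promoter: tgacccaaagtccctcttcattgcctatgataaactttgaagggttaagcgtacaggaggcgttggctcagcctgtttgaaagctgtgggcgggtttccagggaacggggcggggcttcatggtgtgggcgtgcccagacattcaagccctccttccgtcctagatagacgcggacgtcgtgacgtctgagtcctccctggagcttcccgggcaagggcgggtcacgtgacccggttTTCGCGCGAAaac

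In the Cdk1 stretch (chr20:19265043-19265292, plus strand) the capitals mark 2 cell cycle homology regions, beginning 72 and 16 bases before the start. In that of Mcm2 (chr4:122918095-122918344, minus strand) they mark an E2F site read on both strands, 2 overlapping matches that begin 13 and 10 bases before the start. A single motif is marked in each stretch. The Cdk1 stretch also holds the letters of the E2F site, and the Mcm2 stretch those of the cell cycle homology region, both left in lower case. The cell cycle homology region was in 13 of 18 kinetochore promoters (72.2%) and 10 of 15 kinesin promoters (66.7%), but in 3 of 22 replication promoters, against 12.2% of all tested. The E2F site was in 13 of 22 replication promoters (59.1%) and in 0 of 18 kinetochore promoters, against 10.5% of all. Over all genes the shares by direction were closer to each other: 14.6% of the promoters of genes that rose and 10.8% of those that fell held the first motif, 11.1% and 10.4% the second. Matches of 2 different motifs overlapped in at most 0.952% of the promoters, for the E2F site and the metal response core.

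**Figure D4:**
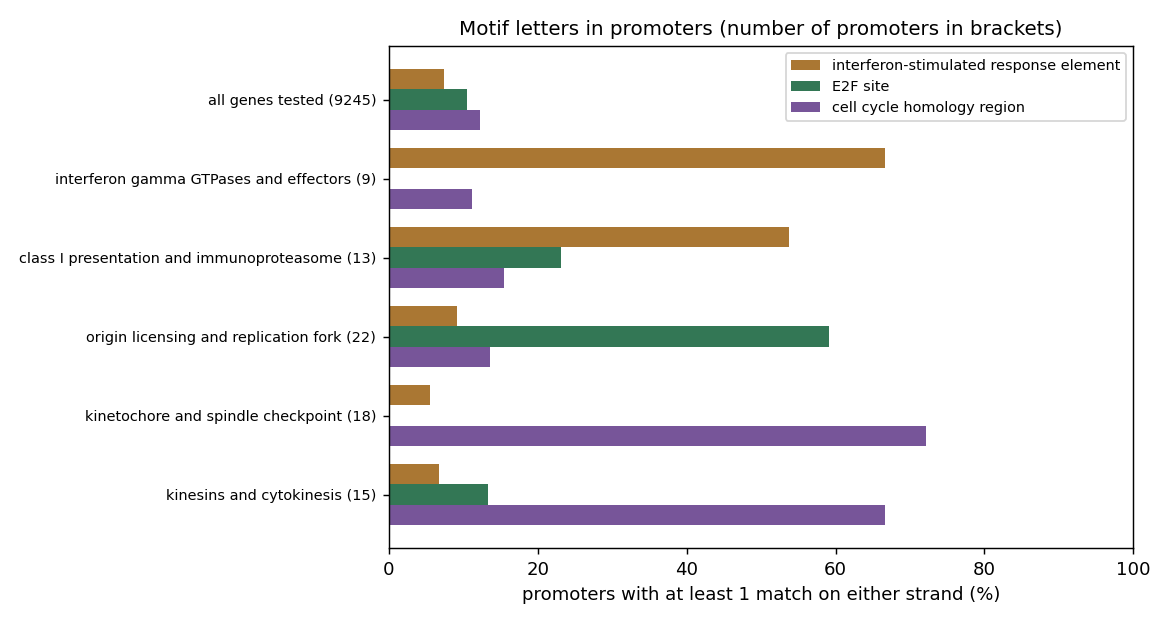
Share of promoters (horizontal axis, in %, 250 bases before to 50 after the start) that hold the letters of 3 motifs, over all tested genes with a promoter and over 5 gene lists (number of promoters in brackets). The interferon element is most frequent in the interferon gamma list, the E2F site in the replication list and the cell cycle homology region in the kinetochore and kinesin lists.

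Of the 12 motifs searched, the others gave these shares over genes that rose, genes that fell and all tested. The CCAAT box, searched by that sequence, was in 41.6%, 35.7% and 38.0%. The antioxidant response element (TGACNNNGC) was in 15.3%, 14.0% and 14.5%, the E-box (CACGTG) in 10.5%, 8.28% and 9.11%, and the gamma-activated site (TTCNNNGAA) in 7.81%, 7.57% and 7.07%. The AP-1 site (TGANTCA) was in 6.66%, 4.79% and 5.39%, the amino acid response element (TGATGNAA) in 2.57%, 2.33% and 2.27%, and the sterol regulatory element (TCACNCCAC) in 1.00%, 1.23% and 1.14%.

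Protein and energy metabolism rose in parts. Of 24 tRNA synthetase and amino acid response genes 12 rose and 1 fell (median 0.33). Mthfd2, the mitochondrial folate enzyme of dividing cells, read -3.98, -3.74, -3.96, -3.35 and -4.05 in air rats and -1.87, -2.46, -1.52, -1.44 and -1.09 in exposed rats, a rise of 2.14 ± 0.20 (adjusted p = 2.02e-09). Asparagine synthetase, Asns, rose by 0.70 ± 0.10, and the stress factor Atf5 fell (difference -0.75 ± 0.11). Ribosome biogenesis gave 7 increases and 1 decrease of 21 (median 0.10), the largest rise being that of Bop1, a processing factor of the large subunit (0.48 ± 0.12), which missed the threshold with median centring. Of 24 glycolysis and pentose phosphate genes 15 rose and 2 fell (median 0.36). Hk3, the hexokinase of myeloid cells, read -0.12, -0.10, 0.08, -0.51 and -0.06 and 1.62, 0.92, 2.89, 2.45 and 3.02, a rise of 2.32 ± 0.26 (adjusted p = 6.91e-08), and the lactate exporter Slc16a3 rose by 1.51 ± 0.12. Pfkm, the muscle form of phosphofructokinase, fell (difference -0.52 ± 0.15).

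Fatty acid oxidation and PPAR targets were balanced, 6 of 24 higher and 6 lower (median -0.08, and 0.01 without air rat 4). Pparg, the nuclear receptor that alveolar macrophages depend on, read 0.05, -0.36, 0.19, 0.03 and -0.05 in air rats and -1.91, -2.0, -2.46, -1.78 and -1.84 in exposed rats, a decrease with a difference of -1.97 ± 0.20 (adjusted p = 1.34e-08) without overlap. Of 27 respiratory chain subunits 1 passed, Sdhb of complex II at 0.24 ± 0.08 (adjusted p = 0.0225), which missed the threshold under 8 alternatives (adjusted p up to 0.473), and the median was 0.06. Without air rat 4, 5 of the 27 rose, 0 fell and the median was 0.16.

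Cell death genes gave 10 increases and 2 decreases of 19 (median 0.32). Acsl4, the acyl-CoA synthetase that primes membranes for ferroptosis, read -0.36, -0.20, -0.30, -0.63 and -0.07 in air rats and 1.35, 1.17, 1.61, 1.49 and 1.6 in exposed rats, a rise of 1.76 ± 0.12 (adjusted p = 9.18e-12). Ripk3, the necroptosis kinase, rose by 1.69 ± 0.15 and the survival protein Bcl2a1 by 1.73 ± 0.20. The survival protein Bcl2l1 fell (difference -0.57 ± 0.17).

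The list of neuropeptides and their receptors, neurotrophins and neuroendocrine cell genes gave 7 decreases and 1 increase of 19 (median -0.33). Tac1, the precursor of substance P, read 2.75, 2.37, 2.84, 2.78 and 2.45 in air rats and -0.75, -0.69, -0.84, -0.58 and -0.52 in exposed rats, whose signal was not well above background, so that it was at least 10.6-fold lower in the Cy5 channel, against 9.94-fold as ratios to the reference (adjusted p = 8.04e-10). Over the mean of its 2 probes the difference was -2.27, against -3.31 ± 0.30 for the brighter one. Vipr1, a receptor for vasoactive intestinal peptide, fell (difference -0.96 ± 0.14). Calca and Vip themselves gave -0.51 ± 0.27 and -0.21 ± 0.10 (adjusted p = 0.147 and 0.0943), and the second CGRP gene, Calcb, rose by 0.93 ± 0.31 with overlapping groups (adjusted p = 0.0186, and 0.0562 and 0.063 without air rat 5 or 3).

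Of 24 flavin monooxygenases and other oxidases of the lung 12 fell and 1 rose (median -0.53, -0.62 to -0.19 within slides), or 10 and 1 without air rat 4 (median -0.51). Cyp4b1, a P450 of type I, club and type II cells, read 4.41, 4.51, 4.62, 4.70 and 4.48 in air rats and 3.06, 3.54, 3.38, 2.90 and 2.45 in exposed rats, a decrease with a difference of -1.48 ± 0.23 (adjusted p = 8.57e-06). Cyp2e1 fell as well (difference -1.55 ± 0.23), and the glucuronosyltransferase Ugt1a6 rose by 0.64 ± 0.15. In the retinoid and vitamin D list 4 of 14 fell and 1 rose (median -0.26). The retinal dehydrogenase Aldh1a1 fell (difference -0.68 ± 0.15), and Rdh10, which makes retinal, rose by 0.47 ± 0.09.

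Airway genes gave 3 decreases and 2 increases of 16 (median -0.20, and -0.06 without air rat 4). Bpifb1, a secreted defence protein of airway glands and goblet cells, read 0.72, 1.06, 1.13, 4.52 and 0.56 in air rats and 4.95, 4.28, 4.98, 4.52 and 4.30 in exposed rats. Air rat 4 was as high as the exposed rats, and the rise was 3.01 ± 0.52 with it (adjusted p = 4.28e-05) and 3.74 without it. The ciliary gene Tekt2 rose by 1.21 ± 0.12 and the ciliary gene Tppp3 fell (difference -1.07 ± 0.18). The club cell gene Scgb1a1 and the ciliated cell factor Foxj1, which define their cell types, gave -0.25 ± 0.14 and 0.13 ± 0.29 and did not pass (adjusted p = 0.156 and 0.76).

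Of 13 tested heart muscle genes 2 fell and 0 rose, and their median of -1.25 became -0.22 without air rat 4. One of these was Cox8b, a cytochrome oxidase subunit of heart and brown fat, which read 4.22, 4.0, 3.81, 6.87 and 4.46 in air rats and 2.39, 2.35, 1.58, 2.01 and 1.26 in exposed rats. It fell by 2.75 ± 0.37 (adjusted p = 1.13e-06), and on the 3 slides without air rat 4 the differences were -1.99, -2.36 and -2.23, against -4.49 on the slide with it. The other was Hcn4, a pacemaker channel that was above background in 3 air rats and in none of the exposed rats (adjusted p = 0.00312), so that its level in exposed rats is only a limit. Of 14 genes of skeletal muscle, cartilage, thymus, liver and fat 4 rose and 1 fell (median 0.03, below 0 with median centring and Cy5 alone). Among them was Serpina1, alpha-1 antitrypsin (2.14 ± 0.31), which macrophages also make, and the list's means per rat were -2.04 to -1.21 in air rats and -1.67 to -1.34 in exposed rats. The part of other tissues in these results was not tested beyond leaving out that rat.

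Among the 15 largest increases and decreases with separate groups were several genes outside the lists. Serpina11, a secreted serpin, read -0.94, -0.98, -1.14, -1.47 and -0.75 in air rats and 2.60, 1.97, 2.83, 2.65 and 2.99 in exposed rats, a rise of 3.67 ± 0.19, or 12.7-fold (adjusted p = 3.6e-14). Gsg1, a gene named for its expression in germ cells, read -2.32, -1.72, -2.48, -2.39 and -2.33 and 1.35, -0.65, 2.47, 1.58 and 2.28. All exposed rats were above the air rats, rat 76 well below the other 4, and the probe was above background in only 2 air rats (difference 3.65 ± 0.39, adjusted p = 2.3e-08).

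On the other side, Gsn, gelsolin, which severs actin filaments, read 4.86, 4.63, 4.96, 5.34 and 4.91 in air rats and 3.29, 3.23, 2.47, 3.11 and 2.60 in exposed rats, a decrease with a difference of -2.0 ± 0.16 (adjusted p = 1.2e-10). PCOLCE2, an enhancer of procollagen processing, read -1.13, -0.54, -0.17, -0.71 and -0.53 and -2.63, -1.98, -3.09, -3.16 and -3.44, a decrease with a difference of -2.24 ± 0.26 (adjusted p = 7.22e-08). Cela1, an elastase of alveolar epithelium, read -0.71, -0.12, -0.30, -0.88 and -0.64 and -2.97, -2.86, -3.25, -2.20 and -2.52, a decrease with a difference of -2.23 ± 0.30 (adjusted p = 9.3e-07). Prodh2, a hydroxyproline dehydrogenase, read 0.71, 0.75, 0.76, 0.51 and 0.66 and -1.6, -1.49, -1.96, -1.06 and -1.56, a decrease with a difference of -2.21 ± 0.25 (adjusted p = 4.64e-08). The groups of these 4 genes did not overlap.

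Set directly against the low dose on the same day, the high dose differed in fewer genes, 1476 higher (8.01%) and 712 lower (3.87%). These contrasts share the high dose rats with the comparison above. Among the 8 largest increases were several interferon-induced genes. Beside Ccl12 (3.30 ± 0.34), a monocyte attractant, and Cxcl10 (3.14 ± 0.27), the antiviral genes Rsad2 and Mx1 were 2.94 ± 0.27 and 2.60 ± 0.30 higher than at the low dose (adjusted p = 2.55e-08 and 6.38e-07), and Siglec1, an interferon-induced lectin of macrophages, 3.0 ± 0.31 higher. In the interferon gamma list 9 of 11 tested members were higher than at the low dose, in the sensor list 12 of 19 and in the class I list 9 of 14. The limit on how Acod1 and Nos2 could enter the test applies to the interferon gamma list here too. For Gbp2 the difference of the low dose from air did not pass (difference -0.13, adjusted p = 0.692), and the same held for F10 (0.16, adjusted p = 0.695), Acod1 (0.06, adjusted p = 0.822) and Tnf (0.27, adjusted p = 0.662). High minus low dose was 1.41 ± 0.15, 1.78 ± 0.19, 1.37 ± 0.12 and 1.56 ± 0.30 in these 4 genes (adjusted p = 1.73e-07, 2.15e-07, 1.24e-08 and 0.000576). The probes of F10 and Acod1 were not well above background in most or all air rats. Differences are compressed at that level, so a small low dose effect on these genes could be missed.

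Other genes showed most of their change at the low dose already, and the step from low to high dose was not resolved. For Il1b it was 0.48 ± 0.26 (adjusted p = 0.267), for Chi3l1 0.46 ± 0.29 (adjusted p = 0.363), for Cp 0.11 ± 0.13 (adjusted p = 0.674) and for Trem2 0.46 ± 0.24 (adjusted p = 0.247). The low dose differed from air by 1.56, 2.37, 0.93 and 1.75 in these genes. Tac1 cannot be placed among them: its low dose difference from air was -2.83 and its step -0.49 ± 0.30 (adjusted p = 0.335). Tac1 was not well above background at the high dose, so its step is only a limit. How much of its change was present at the low dose cannot be told. Of 21 kinetochore genes 16 were higher at the high than at the low dose, and of 17 kinesin genes 13. Cdk1, called at both steps, was 1.32 above air at the low dose and a further 1.26 ± 0.13 at the high dose (adjusted p = 7.85e-08). Among the falls, Prodh2, PCOLCE2 and the endothelial gene Esm1 were lower than at the low dose (-1.77 ± 0.25, -1.44 ± 0.26 and -1.56 ± 0.26), as were 8 of 20 type I and caveolar genes, but 2 of 22 endothelial genes. Without high dose rat 79 or 77 the count of genes below the low dose was 339 or 395.

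On day 28, with 5 other high dose rats and 5 other air rats, 34 genes differed (0.185%), 14 higher and 20 lower. The change of the effect between the days passed the test in 3084 genes (16.7%). Of the 34 genes, 23 had also passed on day 6 (67.6% of the day 28 genes and 0.342% of those of day 6), 16 of them in the same direction. The counts on day 28 rested on single animals. They were 89 higher and 237 lower without air rat 8, 38 and 73 without high dose rat 84, and 5 and 6 without air rat 9. The genes named here for both days were taken after their values were seen, unless they belong to the lists or to the largest changes. Duoxa1 was still 0.90 ± 0.16 higher on day 28 (adjusted p = 0.00839), against 1.81 ± 0.16 on day 6. RT1-DMa, which loads peptides on MHC class II, was 1.67 ± 0.12 higher on day 6 and 0.61 ± 0.12 on day 28 (adjusted p = 2.68e-11 and 0.0248).

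Others turned. Eln, elastin, was 1.07 ± 0.27 on day 6 and -1.52 ± 0.27 on day 28 (adjusted p = 0.00218 and 0.00854). The clock genes Dbp, Per2 and Bmal1 gave -1.10 ± 0.23, -0.57 ± 0.15 and 0.67 ± 0.16 on day 6 and 2.64 ± 0.23, 1.16 ± 0.15 and -1.13 ± 0.16 on day 28, and the change between days passed for each (adjusted p = 1.59e-09, 4.8e-07 and 7.29e-07). These 3 genes oscillate over the day, the sources used here do not give the hour at which each rat was killed, and its part was not tested. Pparg, low on day 6, was 0.89 ± 0.20 on day 28 (adjusted p = 0.0592), and the change between the days was -2.85 ± 0.29 (adjusted p = 3.52e-08). For Cdk1, Mt1, Cav1 and Tnf the day 28 differences were -0.22 ± 0.13, 0.47 ± 0.22, -0.16 ± 0.14 and 0.04 ± 0.30, none past the threshold, and the change between the days passed in each (adjusted p = 1.17e-11, 0.000126, 6.63e-06 and 0.003). For Retnla (0.71 ± 0.33 on day 28) and Atp7a it did not (adjusted p = 0.349 and 0.499).

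**Figure D5:**
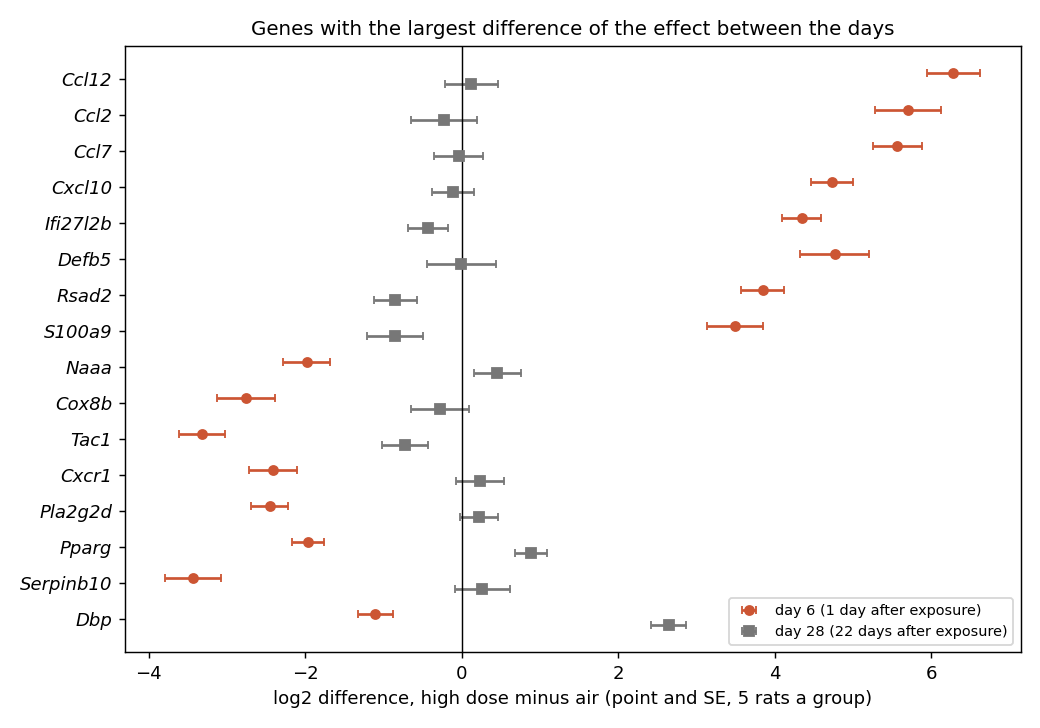
Log2 difference of high dose minus air (horizontal axis, point and SE, 5 rats a group and day) on day 6 (red circles) and day 28 (grey squares) for the 16 genes with the largest difference between the days. On day 28 all but Dbp (2.64) lie between -0.85 and 0.89, and the 8 genes at the top lie at 3.49 to 6.28 on day 6.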

How the data were processed

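Lung RNA of 30 rats was hybridised to 2-colour Agilent arrays, 1 array a rat, with the rat's RNA in Cy5 and a common reference in Cy3. The labels name a mouse reference in one field and a rat reference in another; it drops out of differences between groups. The deposited scanner files hold spot intensity per channel, extracted with Agilent Feature Extraction 11.0.1.1, per the submitters' processing notes, and the authors' deposited value table holds log2 ratios of the same arrays (column medians -0.0314 to -0.00539). Here median intensities were background-corrected with normexp (offset 50) and normalized by loess within arrays, leaving out 4259 control spots of 62976 and outlier-flagged spots, and spots of a probe were averaged. Probes well above background in Cy5 on at least 5 of 30 arrays were kept (20852 of 30367). The brightest probe stood for a gene. Other probes of some named genes gave smaller differences on day 6, as for Thbd (-0.677), Mcm2 (0.698), Slc11a2 (0.703) and Met (0.369). For Fcgr1a and Plaur they gave larger ones (2.00 and 1.081). RefSeq (GRCr8) accessions gave symbols to 18005 probes, so that 11331 of 18420 tested genes had one. All 6 group means were fitted in limma 3.58.1 (R 4.3.3), with Benjamini-Hochberg adjustment and a threshold of 0.05, and the steps were tested on simulated data. Nothing says whether the rats were handled as independent litters or cages, so p-values measure the spread between these animals. The number of arrays limits the precision. A fold given as "at least" sets the brighter group's mean against the dimmer group's detection limit in the Cy5 channel alone, after quantile normalization of A-values, so it is no bound on the ratio to the reference and is open to dye bias. Tested were 1043 of 1245 entries of 55 gene lists, with 78 too dim and 124 without a probe, among them Slc31a1 and Brca1 (dim) and Sfn, Csf2, Mlkl, Mki67 and Top2a (no probe). Members and lists were chosen with earlier results of these data known. Genes named are the 15 largest changes each way with separate groups, in each list the 3 genes lowest in p and the leading one in the other direction, the 8 largest each way between doses and between days, and a panel (275 in all). Alternatives were no background correction, the authors' values, the scanner's processed signals, median centring, Cy5 alone, other filters on dim probes, the mean of a gene's probes, slide as a block, only the compared groups, a 1.5-fold minimum and leaving out each rat. Some of these genes are not reported here.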

Additional observations from a re-analysis of the deposited data

Results flagged for a closer look

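In 13 of 244 groups of 5 rats examined (5.33%), 1 animal lay so far from the others that its gap exceeded 0.71 of the group's range. The groups are lists and genes of the text in the same rats and are not independent. The share therefore cannot be set against a chance level. Air rat 4 accounted for 9 of the 13. Its list means were 4.44 for heart muscle (other air rats -0.46 to 0.36), 2.91 for airway genes (1.34 to 1.54), 1.67 for lymphoid tissue genes (0.43 to 0.78) and 1.76 for flavin monooxygenases and other oxidases (1.26 to 1.36). It was also high for Cox8b (6.87 against 3.81 to 4.46), Bpifb1 (4.52 against 0.56 to 1.13), Hp (2.26 against 1.15 to 1.47) and Atp7b (-0.02 against -0.83 to -0.67), and low for Ctsh (1.11 against 1.84 to 2.12). Whether other tissue was sampled with this lung was not tested.

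Among the rest, the class I list mean of air rat 3 was 0.69 (others 0.39 to 0.47), and Gch1 was 2.58 in high dose rat 77 (others 1.57 to 1.84). Air rat 2 was high for Gsg1 (-1.72 against -2.48 to -2.32), a dim gene in air rats, and air rat 5 was high for Cp (1.57 against 1.12 to 1.19).

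The high dose effect differed between day 6 and day 28 in 3084 genes by the interaction test. The largest positive differences of effect, day 6 minus day 28, were those of Ccl12 (6.16), Ccl2 (5.93), Ccl7 (5.6), Cxcl10 (4.84), Ifi27l2b (4.77), Defb5 (4.77), Rsad2 (4.69) and S100a9 (4.35). The largest negative ones were those of Dbp (-3.75), Serpinb10 (-3.7), Pparg (-2.85), Pla2g2d (-2.68), Cxcr1 (-2.64), Tac1 (-2.59), Cox8b (-2.47) and Naaa (-2.43).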

How the results depend on the processing

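Of the 275 named genes 235 passed in the comparison of high dose with air on day 6. Of these, 212 passed in every alternative fit that held them, and no result reversed. The 1.5-fold minimum was applied only to the counts over all genes, not to single genes. The filter of at least 10 arrays above background held 270 of the 275. With median centring 2285 genes rose, and with a minimum of 1.5-fold 1780 rose and 953 fell; leaving out 1 rat gave 3470 to 3776 increases and 2351 to 2718 decreases. High against low dose, 688 genes were higher and 320 lower with median centring, 1070 lower with the authors' values and 1083 with Cy5 alone. Leaving out 1 rat gave 1014 to 1744 higher and 339 to 847 lower, the lowest without high dose rat 79 (339) or 77 (395). Between the days 2072 effects were higher on day 6 and 1012 lower, but 1042 and 581 with median centring, and 1846, 1599 and 1779 were lower with the authors' values, processed signals and Cy5 alone. Leaving out 1 rat gave 1752 to 2340 and 744 to 1201. On day 28 the 14 higher and 20 lower genes became 2 and 6 with median centring, 57 and 53 with Cy5 alone, 7 and 5 with only the compared groups, and 27 higher with processed signals. Leaving out 1 rat gave 5 to 89 and 6 to 237, with air rat 8 and high dose rats 84 (38 and 73) and 80 (22 and 37) raising them, air rats 6 (5 and 7), 7 (9 higher) and 9 (5 and 6) and high dose rats 81 (8 and 13), 82 (5 and 10) and 83 (7 higher) lowering them. The cause of these shifts was not tested. Genes near the background have compressed differences: with processed signals Acod1 was 4.74 and F10 4.39 higher. No paired analysis was possible because the rat numbers are not shared between groups.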
